A study of Drosophila melanogaster with 9 samples.

Results

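Ionotropic glutamate receptor subunits of muscle, with their AMPA-type relatives, are followed here across whole adult flies of 2 genotypes. The 7 genes are GluRIIA, GluRIIB, GluRIIC, GluRIID, GluRIIE, GluRIA and GluRIB, taken by name from the authors' annotation sheet out of 14865 genes in the count table. All 7 are in that table, and 6 passed the filter on low counts. The family was taken up with the genotype differences of these libraries already known, so its fold changes between genotypes are descriptions with no test of their own.

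The series compared control Drosophila melanogaster with mutants for E78A, a nuclear receptor encoded by Eip78C, by sequencing poly(A) RNA of whole flies. The authors' sample sheet gives the genotype of the 5 control libraries as w1118 and that of the 4 mutant libraries as E7818.37. Both genotypes were aged to day 8 of adulthood on the same food of 8% yeast and 9% sugar. What part of Eip78C the allele alters, whether the stocks share a background, how many flies made a library and which sex they were are not given in the labels. Nothing says that libraries came from separate crosses, so every error and p-value reflects only how far these samples scatter, and part of that may be technical.

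At the fly neuromuscular junction the motor neuron releases glutamate, and muscle answers through cation channels built from several subunits. GluRIIC, GluRIID and GluRIIE are part of every such channel, which also holds either GluRIIA or GluRIIB. The channels with GluRIIA and those with GluRIIB differ in how fast they desensitise, and the subunits that all channels share are needed for any receptor to gather opposite the nerve ending. GluRIA and GluRIB resemble AMPA receptors of vertebrates and are known mainly from the nervous system.

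Library totals ran from 16556267 to 19093675 counts. Values below are CPM, counts scaled to a library size that carries the TMM factor. In 4 libraries (mutant replicates 3 and 4, control replicates 4 and 5) the genotype tag contradicted the title, and the authors' sample sheet sided with the title in all 9. The opsin gene Rh6 ran from 4.18 to 11.1 CPM among control and from 41.2 to 52.3 CPM among mutant libraries by title. The non-coding gene CR43263 had a mean of 14.4 ± 2.08 CPM (SD) in controls and 0 counts in every mutant library by title. Counts of these genes, picked after their values were seen, split the libraries by title and not by tag. Eip78C itself ran from 8.57 to 15.6 CPM among control and from 8.86 to 12.4 CPM among mutant libraries, so its counts over the whole gene do not tell the genotypes apart. The yolk protein genes, which females express, summed to 16.1 CPM or less in every library, against 745 CPM or more for 9 testis genes. The sheet's replicate numbers tie 4 control to 4 mutant libraries, and control replicate 3 has no partner.

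GluRIIC (FBgn0046113), a subunit that every muscle receptor needs, was higher in the mutants. It lies on 2L at 914086 to 917805 on the plus strand (coordinates here and below are of BDGP6, from the authors' annotation sheet), with 11 exons that together span 3004 bases and code for 940 residues, and it overlaps no other annotated gene. In control replicates 1 to 5 it stood at 15.2, 13.2, 13.1, 13.2 and 14.9 CPM. In mutant replicates 1 to 4 it stood at 18.7, 30.3, 37.5 and 26.2 CPM. The groups did not overlap, as for 6.16% of all tested genes in either direction. The controls lay close together, and mutant replicate 1 was the mutant library nearest to them. The means were 13.9 ± 1.04 CPM (SD, n = 5) and 28.2 ± 7.85 CPM (SD, n = 4), a log2 fold change of 1.02 (SE 0.16), or 2.02-fold. Of all tested genes, 0.693% had a higher log2 fold change. In whole flies, more cells that make a transcript and more transcript per cell cannot be told apart.

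GluRIIC was the 1 member of 6 tested that was higher past the threshold of the fit over all genes (edgeR, adjusted p under 0.05), while 0.708% of the 13274 tested genes were called higher, 0.927% lower and 1.63% in either direction. Since this contrast was known when the family was taken up, nothing is read from that count. Within the pairs of the sample sheet, the mutant library held, from pair 1 to pair 4, 1.23, 2.29, 2.85 and 1.76 times the GluRIIC level of its control partner. The call held in 15 of 16 alternative fits that keep the grouping by title. It was lost with the 5 libraries whose title and tag agree (log2 fold change 0.83), and grouped by the tag the value was -0.13. The authors' deposited table gave a log2 fold change of 0.95 for GluRIIC with a standard error of 0.15.

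**Figure D1:**
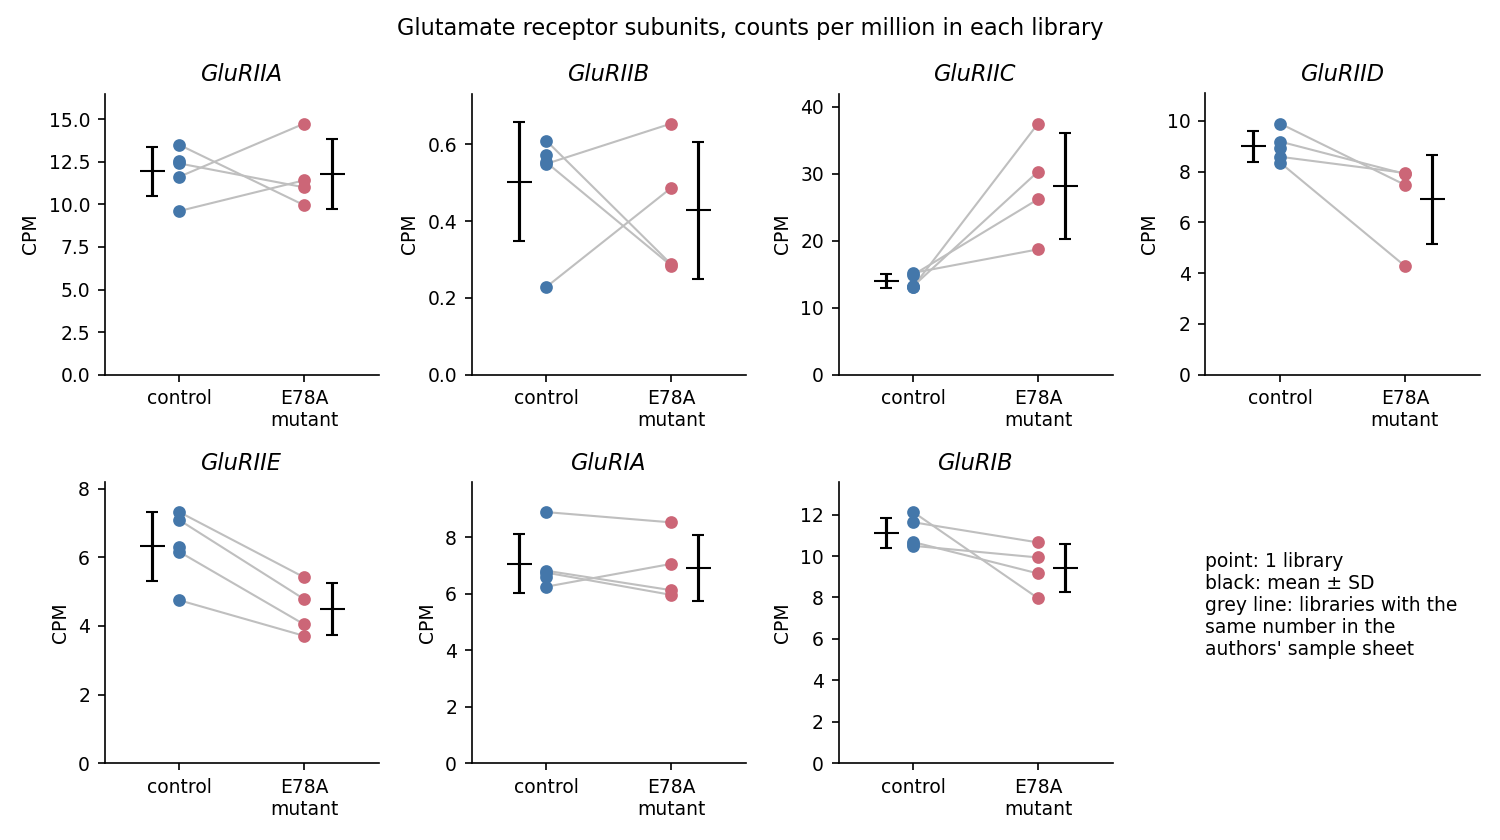
Level in CPM of each subunit gene in each library (points), with the mean and SD of each genotype in black and grey lines joining libraries that share a number in the authors' sample sheet. GluRIIC was at 13.1 to 15.2 CPM in the 5 control libraries and at 18.7 to 37.5 CPM in the 4 mutant libraries, while GluRIIE was lower in the mutant of each of the 4 pairs and stayed below the calling threshold.

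The other subunits that every muscle receptor holds, GluRIID and GluRIIE, had lower means in the mutants, and neither passed the threshold over all genes. These genes are neighbours on the minus strand of 3R, GluRIID (FBgn0028422) at 20648595 to 20652450 and GluRIIE (FBgn0051201) at 20644154 to 20648716. They share 122 exonic bases, so counts over that stretch are uncertain between them. GluRIIE also meets 126 exonic bases of Lrrk, a kinase gene on the other strand.

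GluRIID stood at 9.18, 8.35, 8.94, 8.58 and 9.89 CPM in control replicates 1 to 5 and at 7.91, 4.28, 7.95 and 7.48 CPM in mutant replicates 1 to 4. Every mutant library was below every control library, and mutant replicate 2 was far below the other mutants. Groups failed to overlap in this way for 6.16% of all tested genes, counting both directions. The means were 8.99 ± 0.596 CPM (SD, n = 5) and 6.90 ± 1.76 CPM (SD, n = 4), a log2 fold change of -0.38 (SE 0.17). Without mutant replicate 2 the value was -0.21.

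GluRIIE stood at 7.08, 6.15, 6.30, 7.31 and 4.74 CPM in control replicates 1 to 5 and at 4.78, 4.04, 5.41 and 3.71 CPM in mutant replicates 1 to 4. Control replicate 5 lay among the mutant libraries, so the groups overlapped. The means were 6.32 ± 1.01 CPM (SD, n = 5) and 4.49 ± 0.763 CPM (SD, n = 4), a log2 fold change of -0.49 (SE 0.17). The mutant library held 0.675, 0.657, 0.740 and 0.782 times the level of its partner in the 4 pairs. A mutant library below its partner in all 4 pairs was found for 13.0% of tested genes, GluRIID, GluRIIE and GluRIB among them. With the pairs as a block in edgeR, the log2 fold change was -0.49 (SE 0.14) for GluRIIE and -0.40 (SE 0.15) for GluRIID, and neither was called. GluRIIC was again the 1 member called, where that fit called 3.89% of all tested genes.

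GluRIIA (FBgn0004620) and GluRIIB (FBgn0020429), which take the same place in the receptor as alternatives, lie in tandem on the plus strand of 2L, at 5555072 to 5558994 and 5559342 to 5563502, with 347 bases between them. GluRIIA shares 66 exonic bases with the upstream gene CG14017 on its own strand. GluRIIA stood at 13.5, 9.61, 12.5, 11.6 and 12.4 CPM in control replicates 1 to 5 and at 9.95, 11.4, 14.7 and 11.003 CPM in mutant replicates 1 to 4. The groups overlapped widely, and the highest library was mutant replicate 3, which was also highest for GluRIIC. The means were 11.9 ± 1.46 CPM (SD, n = 5) and 11.8 ± 2.07 CPM (SD, n = 4), a log2 fold change of -0.02 (SE 0.13).

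GluRIIB was barely detected, with 4 to 12 counts in a library, and was left out of the fit by the filter on low counts. Its means were 0.503 ± 0.155 CPM (SD, n = 5) and 0.428 ± 0.178 CPM (SD, n = 4). With no filter its log2 fold change was -0.24 (SE 0.44) and was not called. At this depth counting error alone gives a coefficient of variation of 33.0% in the controls and 37.1% in the mutants, close to the 30.8% and 41.5% observed, so a moderate genotype difference in GluRIIB was not detectable.

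The AMPA-type genes lie apart on 3L, GluRIA (FBgn0004619) at 6624032 to 6635059 and GluRIB (FBgn0264000) at 9251978 to 9288522, both on the plus strand. GluRIA ran from 6.25 to 8.89 CPM among control and from 5.96 to 8.52 CPM among mutant libraries, with a log2 fold change of -0.03 (SE 0.15). GluRIB ran from 10.5 to 12.1 CPM and from 7.96 to 10.7 CPM, with a log2 fold change of -0.24 (SE 0.11). The groups overlapped for both genes, and neither was called.

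**Figure D2:**
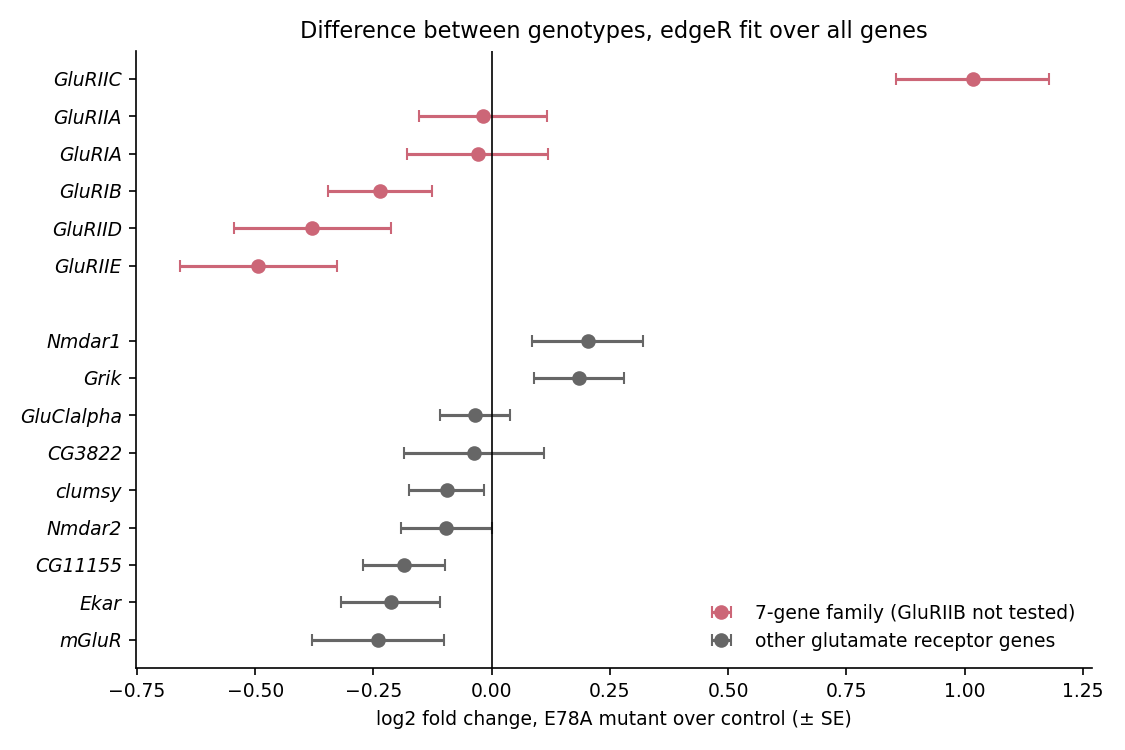
Log2 fold change of mutant over control with its SE from the edgeR fit, for the 6 tested subunit genes (red) and 9 other glutamate receptor genes (grey). GluRIIC stands at 1.02, the other 14 genes lie between -0.49 and 0.20, and none of those was called.

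Among the tested members, GluRIIC and GluRIID had the widest spread over the mutant libraries. The coefficient of variation of GluRIIC was 7.48% over the control libraries, near the 6.29% of counting error alone, and 27.9% over the mutants, where counting error gives 4.56%. For GluRIID it was 6.64% in the controls and 25.5% in the mutants, where counting error gives 9.21%. The lowest mutant library was replicate 1 for GluRIIC and replicate 2 for GluRIID. The mutant spread of GluRIID rests on that 1 library, at 4.28 CPM beside 7.48 to 7.95 CPM in the other mutants. For the other members that were tested, the values were 6.55% to 16.0% in the controls and 12.2% to 17.6% in the mutants. GluRIIB, which was not tested, had 30.8% and 41.5%, close to its counting error. The difference in spread between genotypes was not tested, and how common such a difference is over all genes was not counted.

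The levels of the subunits can be set against each other once divided by exon length. Levels of 1 gene against another were not used to choose the genes. The comparison still holds mutant values of GluRIIC, GluRIID and GluRIIE that were known at that choice. In both genotypes GluRIIC had the highest level, at 4.64 ± 0.347 CPM per kb of exon in the controls (SD, n = 5) and 9.38 ± 2.61 CPM per kb in the mutants (SD, n = 4). GluRIIA followed at 3.67 ± 0.448 and 3.62 ± 0.636 CPM per kb. GluRIID was at 2.92 ± 0.194 and 2.24 ± 0.572 CPM per kb. GluRIA, GluRIIE and GluRIB lay close together, at 1.85, 1.83 and 1.55 CPM per kb in the controls and 1.81, 1.30 and 1.31 CPM per kb in the mutants. GluRIIB was lowest, at 0.170 and 0.145 CPM per kb.

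Neighbours in this order were compared within libraries, as the mean log2 ratio of the upper to the lower gene. GluRIIC was above GluRIIA in 5 of 5 controls (mean log2 ratio 0.34) and in 4 of 4 mutants (1.34), given as a description because its mutant values entered the choice of members. The other pairs had exact two-sided sign-flip permutation tests over the 9 libraries, adjusted over all 6 pairs. The order was taken from these same 9 libraries, so which genes were neighbours was not set in advance. Mutant values of GluRIID and GluRIIE were also known when the family was taken up. The p-values thus describe only whether the mean log2 ratio lay away from 0 in these libraries, and do not measure its spread. GluRIIA was above GluRIID in 5 of 5 controls (0.32) and 4 of 4 mutants (0.72; exact p = 0.00391, the smallest the test can give, adjusted p = 0.00781). GluRIID was above GluRIA in 5 of 5 controls (0.66) and 3 of 4 mutants (0.28; exact p = 0.0117, adjusted p = 0.0176). GluRIB was above GluRIIB in 5 of 5 controls and 4 of 4 mutants, 8.98-fold over all (exact p = 0.00391, adjusted p = 0.00781). These 3 tests take the 9 libraries as independent. With each pair of same-numbered libraries on the sample sheet counted as 1 unit, 5 units remained, each of the 3 ratios was above 0 in 5 of 5, and the exact p was 0.0625 for each, the smallest that 5 units allow, so no pair could pass 0.05. GluRIA was above GluRIIE in 3 of 5 controls (0.02) and 4 of 4 mutants (0.48), which missed the threshold (exact p = 0.0508, adjusted p = 0.0609). GluRIIE was above GluRIB in 4 of 5 controls (0.24) and 2 of 4 mutants (-0.01), which also missed it (exact p = 0.195). Whether these ratios differed between genotypes was not tested. Divided by coding length instead, GluRIB moved up beside GluRIID (exact p = 0.984) and above GluRIA in 9 of 9 libraries. GluRIB has 4 annotated transcripts whose exons span 7186 bases together, against 3546 coding bases in the longest, so its place in the order depends on the length used.

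**Figure D3:**
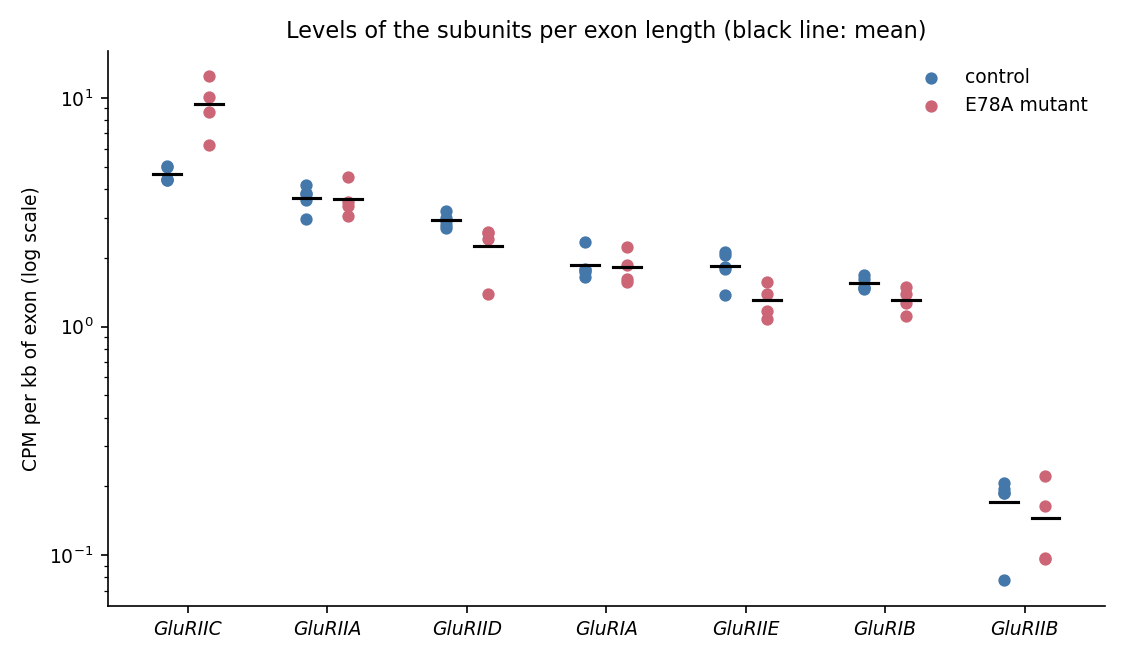
Level of each subunit in each library, in CPM per kb of exon on a log axis, in the order of the mean over all 9 libraries, with black lines for the genotype means. GluRIIC leads in both genotypes, at 4.64 and 9.38 CPM per kb, and GluRIIB is lowest, at 0.170 and 0.145 CPM per kb.

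Put together, these levels give the make-up of the muscle receptor transcripts, which follows from the values above and is again a description. GluRIIC made up 33.2% to 36.9% of the summed level per kb of the 5 muscle subunits in the control libraries and 46.7% to 61.6% in the mutant libraries. The sum itself was 13.2 ± 0.855 CPM per kb in the controls (SD, n = 5) and 16.7 ± 3.32 CPM per kb in the mutants (SD, n = 4). Without GluRIIC, the other muscle subunits summed to 8.59 ± 0.627 and 7.31 ± 1.05 CPM per kb. The libraries of the genotypes overlap in that remainder and do not overlap in the GluRIIC share.

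GluRIIC and GluRIID are partners in the same channel, and the ratio of their levels per kb was 1.70, 1.63, 1.51, 1.57 and 1.55 in control replicates 1 to 5. In mutant replicates 1 to 4 it was 2.43, 7.26, 4.84 and 3.59. Every mutant ratio was above every control ratio. This follows from the values above, since every mutant library was higher in GluRIIC and lower in GluRIID than every control library. The highest ratio was in mutant replicate 2, the library lowest in GluRIID. The ratios are thus descriptions and add no separate result. The ratio of GluRIIC to GluRIIE ran from 2.06 to 3.61 in the controls and from 4.49 to 8.60 in the mutants. The ratio of GluRIID to GluRIIE, genes that both had lower means in the mutants, ran from 1.31 to 2.33 and from 1.18 to 2.25. The ratio of GluRIIA to GluRIIB ran from 15.9 to 49.2 and from 15.8 to 46.4, wide in both genotypes and resting on few GluRIIB counts.

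**Figure D4:**
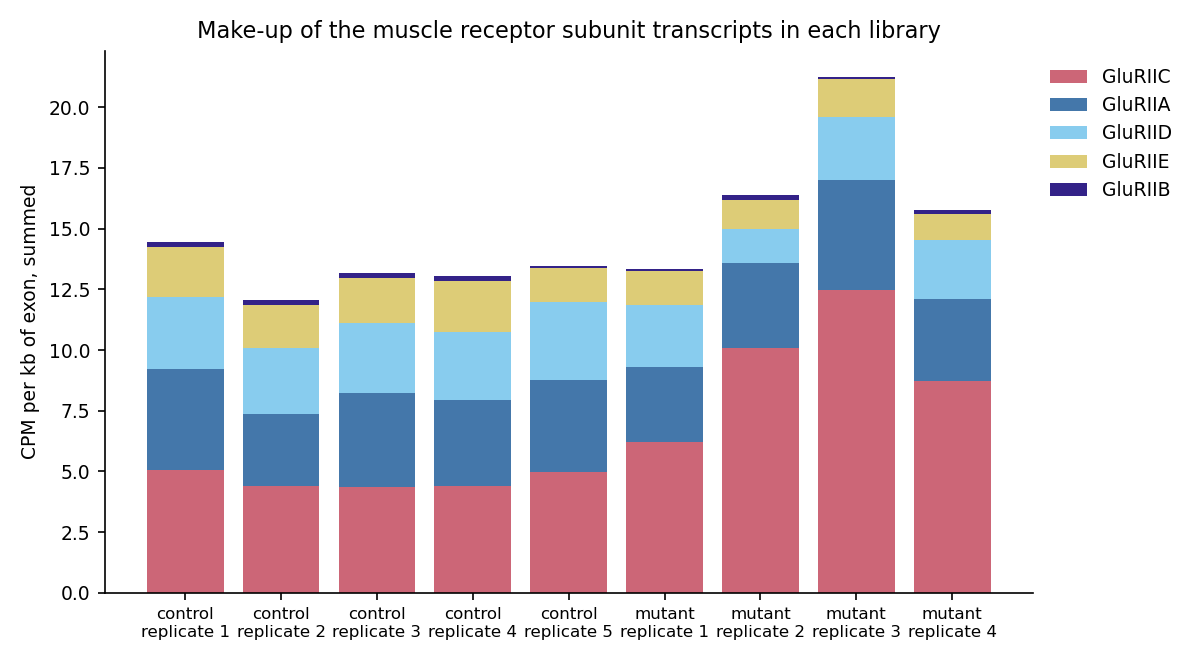
Summed level of the 5 muscle subunits in each library, in CPM per kb of exon, with each subunit a coloured part of the bar. The GluRIIC part is 33.2% to 36.9% of the bar in the 5 control libraries and 46.7% to 61.6% in the 4 mutant libraries.

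Within genotypes, no pair of subunits passed a test for rising and falling together. Deviations of log2 CPM from the genotype mean were correlated over the 9 libraries for each of the 15 pairs of tested members, with Pearson's r from -0.16 to 0.77 and a median of 0.25. The highest was that of GluRIIA with GluRIIC (r = 0.77, exact permutation p within genotype = 0.0326, adjusted p = 0.49; Spearman's rho = 0.50, exact p = 0.20, adjusted p = 0.672). It was 0.78 without control replicate 2 and mutant replicate 3, the libraries farthest from the GluRIIA median. GluRIIE with GluRIA came next (r = 0.64, exact permutation p = 0.0896, adjusted p = 0.672; rho = 0.58, exact p = 0.146, adjusted p = 0.672). It was 0.67 without control replicate 5 and mutant replicate 3. GluRIID with GluRIIE, which adjoin on the chromosome and share channels, had r = 0.16 (exact permutation p = 0.821, adjusted p = 0.889; rho = 0.23, exact p = 0.63, adjusted p = 0.864), and -0.40 without mutant replicates 2 and 3. GluRIIC with GluRIID had r = -0.16 (exact permutation p = 0.749, adjusted p = 0.889; rho = 0.05, exact p = 0.926, adjusted p = 0.987), and -0.39 without mutant replicates 1 and 3.

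The genes whose deviations were most like those of a member were drawn from 12605 others with a mean of at least 1 CPM, as a description over 9 libraries. Picking the highest of so many correlations over so few libraries gives a high r by selection alone. None of these correlations was tested, and no shared regulation is read from them. CG13579 (r = 0.96) and CG6295 (r = 0.95) were most like GluRIIC, and CG10993 (r = 0.98) and Elk, a potassium channel gene (r = 0.97), were most like GluRIIA. For GluRIID they were CG15044 (r = 0.97) and ear (r = 0.95), and for GluRIIE CG12177 (r = 0.96) and the non-coding gene CR43853 (r = 0.94). Synd, which encodes the membrane-shaping protein Syndapin (r = 0.97), and CG15236 (r = 0.94) were most like GluRIA, and CG32095 (r = 0.95) and Su(var)3-3 (r = 0.94) most like GluRIB. None of these 12 genes was called between genotypes.

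No other glutamate receptor gene was called, where 1.63% of all tested genes were. At that share, lists as short as this and those below would often hold no call, so nothing is read from their counts. Of 9 genes in that list, 0 passed in either direction, and the log2 fold changes ran from -0.24 to 0.20 with a median of -0.10, beside a median of -0.0024 over all tested genes. Ekar, a kainate-type receptor enriched in the eye, had 19.0 ± 1.35 CPM in control and 16.4 ± 2.26 CPM in mutant flies (log2 fold change -0.21, SE 0.10, edgeR adjusted p = 0.37). The kainate-type gene CG11155 was at 130 ± 12.3 and 114 ± 9.45 CPM (-0.19, SE 0.09, adjusted p = 0.341). The NMDA receptor genes Nmdar1 and Nmdar2, the glutamate-gated chloride channel gene GluClalpha and the metabotropic receptor gene mGluR had log2 fold changes of 0.20, -0.10, -0.03 and -0.24, and were named after their values were seen. From here on, ± is the SD over the 5 control and the 4 mutant libraries, in that order.

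Genes that gather and hold the receptors in the muscle membrane were likewise without a call. In that list 0 of 29 tested genes passed, with a median log2 fold change of 0.01. Neto, the auxiliary subunit that receptors need for clustering, was at 13.9 ± 1.56 and 12.2 ± 1.17 CPM (-0.18, SE 0.11, edgeR adjusted p = 0.477), and was named after its values were seen. The smallest p values belonged to cora, a FERM protein that anchors GluRIIA (0.17, adjusted p = 0.4), and to Fur1, a proprotein convertase (0.21, adjusted p = 0.228).

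On the nerve side, 0 of 28 genes of transmitter release were called (median log2 fold change -0.03). The calcium channel gene cac had 67.8 ± 3.64 CPM in control and 57.6 ± 2.49 CPM in mutant flies, with no overlap of libraries (-0.24, SE 0.07, edgeR adjusted p = 0.125, and 0.0488 with the pairs as a block). The potassium channel gene slo was at 165 ± 7.02 and 139 ± 9.26 CPM, also without overlap (-0.24, SE 0.07, adjusted p = 0.12, and 0.04 with DESeq2). These were the 2 of 28 genes in this list without overlap, beside 6.16% of all tested genes, so nothing is read from it. VGlut, the vesicular glutamate transporter, had 53.7 ± 4.73 and 58.9 ± 6.86 CPM (0.13, adjusted p = 0.545), and was named after its values were seen. In whole flies its counts are not particular to motor neurons.

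Signals sent back from muscle to nerve, the BMP and activin pathways, held 0 calls among 16 genes (median log2 fold change 0.05). The smallest p values there were those of the co-Smad gene Med (0.26, edgeR adjusted p = 0.154) and of spict, which restrains BMP signalling (-0.25, adjusted p = 0.179). Among 10 genes of glutamate transport and metabolism 0 were called (median 0.04). Gs1, a glutamine synthetase, had 0.32 (adjusted p = 0.171), and 0.20 without mutant replicate 1. The transporter gene gb, known in larvae to set glutamate around the synapse, had -0.17 (adjusted p = 0.327). Among 8 genes of calcium handling in excitation and contraction 0 were called (median -0.01). Calx, a sodium-calcium exchanger, had 233 ± 7.82 and 200 ± 6.22 CPM (-0.22, SE 0.06, adjusted p = 0.121, and 0.0211 with DESeq2), and Stim, a calcium sensor, had 0.15 (adjusted p = 0.262).

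Markers of the tissues in a whole fly were read beside GluRIIC. The 23 muscle markers summed to between 14748 and 15898 CPM in control and between 14361 and 15350 CPM in mutant libraries, and 0 of 23 were called (median log2 fold change -0.02). The smallest p values were those of the flight muscle gene TpnC4 (-0.32, edgeR adjusted p = 0.212) and of bt, a giant sarcomere protein (-0.20, adjusted p = 0.394). The 8 neuron markers summed to 884 to 1040 CPM and 846 to 985 CPM with 0 called (median 0.01, brp -0.12 with adjusted p = 0.512, VAChT -0.18 with adjusted p = 0.396). The 5 glia markers summed to 1265 to 1414 CPM and 1249 to 1372 CPM with 0 called (median 0.07, Eaat1 0.10 with adjusted p = 0.587, Gs2 -0.10 with adjusted p = 0.564). The summed levels of muscle, neuron and glia markers overlapped between genotypes. Genes with high counts weigh most in such sums, as Mhc does in that of muscle, at a mean of 2639 CPM in the controls. Whether tissue make-up has a part in the GluRIIC difference was not tested.

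The 9 testis markers all had negative log2 fold changes, from -0.56 to -0.06, with 0 called and overlapping sums (745 to 1050 CPM and 751 to 792 CPM). Of these, can had -0.43 (edgeR adjusted p = 0.2) and sa -0.56 (adjusted p = 0.171). With the pairs as a block, the values of the 9 genes ran from -0.46 for sa to 0.03 for Mst84Da, so they no longer shared a sign. The 9 photoreceptor markers summed to 4860 to 5463 CPM and 5013 to 5731 CPM, and 1 was called. This was Rh6, a green-sensing opsin of some inner photoreceptors, at 7.58 ± 2.83 and 49.0 ± 5.26 CPM (2.69, SE 0.22, adjusted p = 5.62e-05). With the pairs as a block Rh5, named after its values were seen, was called as well (-0.38, adjusted p = 0.0231). Whether any of these differences has a part in that of GluRIIC was not tested. Over all lists, 1 of 147 tested genes was called, beside 1.63% of all tested genes.

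The chromosome around each subunit gene was read for local differences between the stocks. Within 50 kb of GluRIIC, 0 of 8 tested genes were called, with log2 fold changes from -0.44 to 0.46 and a median of -0.06. The nearest were the non-coding gene CR44061, 0.781 kb upstream on the other strand (0.46, SE 0.29, edgeR adjusted p = 0.498), and CG4341, 4.99 kb downstream (0.21, SE 0.12, adjusted p = 0.429). The larval serum protein gene Lsp1beta, 12.8 kb upstream, varied widely between libraries (117 ± 96.8 and 86.3 ± 65.5 CPM, -0.44, adjusted p = 0.797) and was called with the pairs as a block (-0.73, adjusted p = 0.00464).

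In a wider window of 500 kb, chosen after the data were seen, 12 of 123 tested genes near GluRIIC were called, 6 higher and 6 lower. That is 9.76%, beside 1.63% of all tested genes. These include the non-coding genes CR43263 and CR45346, 299 and 297 kb downstream, which had 0 counts in every mutant library and means of 14.4 and 2.42 CPM in the controls. MFS3, 225 kb downstream, went from 6.94 ± 0.838 to 14.8 ± 0.528 CPM (1.10, SE 0.11, edgeR adjusted p = 0.000287). The nearest called gene on the other side was the non-coding CR46260, 189 kb upstream (-3.32, SE 0.23, adjusted p = 1.8e-05). The median log2 fold change of the 123 genes was 0.01. A sequence difference between the stocks near GluRIIC and an effect of the E78A mutation on GluRIIC cannot be told apart here.

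**Figure D5:**
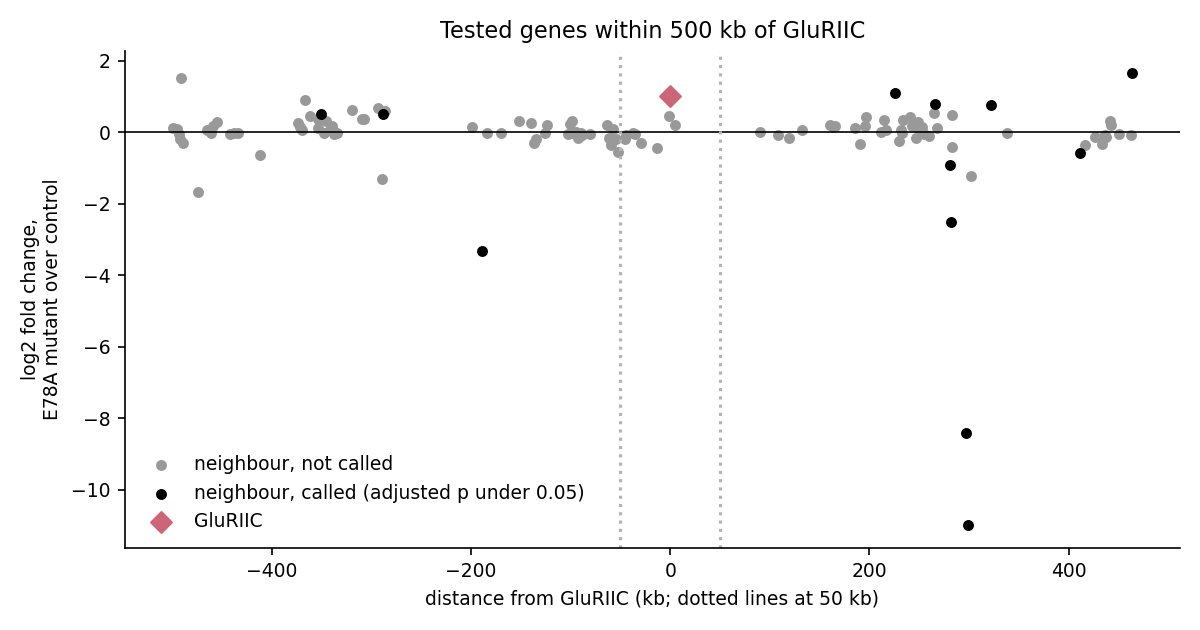
Log2 fold change of mutant over control for the tested genes within 500 kb of GluRIIC, against their distance in kb, with called genes in black and GluRIIC as a red diamond. No gene within 50 kb was called and 12 of the 123 in the window were, the 2 lowest points being genes with 0 counts in the mutants, whose fitted values depend on the prior count and are no measure of size.

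Around the other subunits the 50 kb windows held 1 call. This was CG5466, which went from 14.0 ± 0.98 to 9.25 ± 0.694 CPM (-0.60, SE 0.10, edgeR adjusted p = 0.00737), 22.9 kb from GluRIIE and 27.3 kb from GluRIID. The 11 tested genes within 50 kb of GluRIID, GluRIIE and CG5466 among them, had a median of -0.02. The windows of GluRIIA, GluRIIB, GluRIA and GluRIB held 20, 21, 10 and 6 tested genes and 0 calls, with medians of 0.0018, -0.0013, -0.14 and -0.10. Within 500 kb, 4.46% of 112 genes near GluRIID were called, 0.769% of 130 near GluRIIA, 2.38% of 84 near GluRIA and 0% of 142 near GluRIB.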

How the data were processed

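Stranded poly(A) libraries were sequenced from both ends for 51 cycles, as the labels' protocols state. STAR 2.6.1b, featureCounts 1.6.3, cutadapt 1.16, DESeq2 (1.20.0 and 1.22.2) and the builds dm6 and BDGP6 are listed, without roles, per the submitters' processing notes. Settings for strand and multi-mapping reads were not given in the sources used here. Whole-number counts per gene and library were deposited by the authors, and their comparison table holds log2 fold changes with their SE as a score and p-values, per the file headers. Of that table, only the log2 value and SE for GluRIIC are printed, and whether the value was shrunken is not stated.

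Counts were grouped by title (5 control, 4 mutant), with replicates numbered in accession order, and analysed in R 4.3.3 by edgeR 4.0.16 (filterByExpr with TMM factors at a minimum count of 10, glmQLFTest), adjusting by Benjamini-Hochberg over 13274 genes at 0.05. The biological coefficient of variation was 15.0%. The SE printed with an edgeR log2 fold change is its absolute value divided by the square root of the F statistic of glmQLFTest. Members and lists (11 lists, 156 entries, of which 1, rtGEF, matched no gene and was left out) were chosen with earlier results of these data known. Named genes are called list members or else the 2 with the smallest p, called genes within 50 kb of a member, and the 2 genes most like each member. Exon and coding lengths came from the Ensembl 115 annotation of the same assembly, which gives all 7 members the coordinates of the authors' Ensembl 94 sheet. Levels used a pseudocount of 0.5 in log ratios, and log2 CPM a prior count of 2.

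The sheet's numbers were taken to pair 4 libraries of each genotype, since deviations from the group means of same-numbered libraries correlated at 0.207, 0.214, 0.210 and 0.277 across genes. Alternatives were upper-quartile or RLE factors, DESeq2 1.42.0, other low-count filters, a stricter threshold, each library left out, the pairs as a block, and grouping by the tag or by agreeing labels. The permutation tests of correlations and the level tests over pairs or over controls alone were added after the data were seen. In simulated data for this comparison over 13177 genes, 50 genes were changed at each fold, drawn only from those with a mean of at least 1 CPM. Of these, 64% of genes changed 1.5-fold, 88% of those changed 2-fold and 100% of those changed 4-fold were recovered. Of all calls, 8.33% were false. The recovery does not cover genes with lower counts, such as GluRIIB. Protein and promoter sequences were not used here.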

Additional observations from a re-analysis of the deposited data

Results flagged for a closer look

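In 58 groups of libraries, each holding the CPM of a named gene in 1 genotype, 6 held a library far from the rest by Dixon's gap test at the 95% level, which chance flags in about 1 of 20 groups. GluRIID was at 4.28 CPM in mutant replicate 2, while the other mutant libraries held 7.48 to 7.95 CPM. GluRIIB was at 0.229 CPM in control replicate 5, from 4 counts, beside 0.549 to 0.609 CPM in the other controls. GluRIA was at 8.89 CPM in control replicate 4, beside 6.25 to 6.81 CPM in the others. Outside the family, cora was at 265 CPM in control replicate 3 beside 321 to 337 CPM, and the testis gene can was at 21.8 CPM in the same library beside 15.1 to 16.0 CPM. Rh6 was at 41.2 CPM in mutant replicate 4 beside 50.8 to 52.3 CPM. What sets these libraries apart was not tested.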

How the results depend on the processing

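Over all genes 217 were called. DESeq2 called 492, the fit with the replicate block on the sample sheet's pairs 517, the 5 libraries with agreeing labels 21, a threshold of 0.01 102 and grouping by the tag 0 (171 at an unadjusted p under 0.05). Leaving out each library gave 127 to 291, the fewest without mutant replicates 3 (137) and 4 (127). GluRIIC was the 1 member called in every alternative but grouping by the tag (0 members, log2 fold change -0.13) and the 5 libraries (0 members, 0.83). Its value with 1 library left out ran from 0.85 to 1.17. Grouped by the tag, GluRIIE had -0.13 and GluRIB 0.0875. Among list genes, 3 were called with DESeq2, 3 with the replicate block and 0 by the tag, against 1, and the block changed no member's call. Among neighbours within 50 kb, where 1 was called, DESeq2 and the replicate block each called 2, the tag and the 5 libraries 0, leaving out each library 1 to 2, and the 500 kb window 20. By the tag, CG11155 turned to 0.0112, Med to -0.0196, Stim to -0.00592, bt to 0.00822, brp to 0.00199, VAChT to 0.0352 and Gs2 to 0.0686. The cause of these shifts was not tested, but the tag contradicts the title in 4 libraries. The order of subunit levels was the same with each library left out. Past the threshold were 4 to 5 of 6 neighbouring pairs with each library left out, 4 of 6 with coding length and 4 of 6 over the 9 libraries. These counts include GluRIIC over GluRIIA, which the Results give only as a description. The pairs were taken from the order in these same libraries, so nothing is read from the counts. With pairs as units (the replicate block) or the controls alone, 0 of 6 passed, since 5 units allow no p under 0.0625. A prior count of 0.5 left the median correlation at 0.25. Depth limits GluRIIB most.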
